A study of Homo sapiens with 3 samples.

Results

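Histone genes were examined in peak lists of RUNX2 and its partner CBFB from SAOS2 cells. The genes were all protein-coding genes whose symbol begins with H1-, H2AC, H2BC, H3C or H4C in GENCODE release 44 mapped to GRCh37. This rule gave 69 of 20163 protein-coding genes. A cluster was 3 or more of these genes with at most 1 Mb between neighbours. The chromosome 6 cluster held 51 genes over 2.14 Mb (chr6:25723625-27861669), and the chromosome 1 cluster held 10 genes over 105 kb (chr1:149754245-149859515). The other 8 genes lay elsewhere. By type there were 10 H1, 16 H2A, 17 H2B, 13 H3 and 13 H4 genes.

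Replication-dependent histone genes supply the histones that package newly copied DNA. They are short, mostly lack introns, occur in many near-identical copies, and are switched on together as cells enter S phase. Histones H2A, H2B, H3 and H4 form the core of the nucleosome, and H1 binds the linker DNA between nucleosomes. The symbol rule also took in linker genes that are not tied to replication, such as H1-10. RUNX2 binds DNA and controls genes of bone-forming cells. CBFB binds RUNX proteins rather than DNA.

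SAOS2 is a human osteosarcoma cell line without p53, and the cells had no treatment. The series held 3 samples of these cells, which were RUNX2 ChIP with a custom antibody, CBFB ChIP with a commercial antibody, and input DNA without antibody. Each was 1 library, so no difference between antibodies has a replicate check and no p-value was computed. The RUNX2 list held 9941 peaks and the CBFB list 27246. The input library was not analysed here.

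To ask how often both proteins were found at histone genes, peaks within 5 kb of each gene body were counted. A RUNX2 peak lay within 5 kb of 36 of the 69 histone genes, or 52.2% (exact 95% interval 39.8 to 64.4, counting error only), beside 25.2% of all protein-coding genes. A CBFB peak lay within 5 kb of 40 histone genes, or 58.0% (45.5 to 69.8), beside 48.4% of all protein-coding genes. RUNX2 and CBFB peaks that overlapped each other were found at 31 histone genes, or 44.9% (32.9 to 57.4), beside 23.7%. No peak of either list lay near 24 histone genes, or 34.8%, beside 50.6%. Histone genes were much shorter than other genes, with a median of 511 bp against 27219 bp over all protein-coding genes. A short gene offers less sequence for a peak to fall in. However, 13 of the 69 histone genes were annotated as longer than 5 kb, up to 37610 bp for H2BC4. Peaks counted for these can lie far from the gene start. The midpoint of a CBFB peak of H2BC18, for example, lay 19556 bp from its start.

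Gene starts were also compared, since they do not depend on gene length. The start lay inside a RUNX2 peak at 25 of 69 histone genes, or 36.2% (25.0 to 48.7), beside 6.95% of all protein-coding genes. It lay inside a CBFB peak at 33, or 47.8% (35.7 to 60.2), beside 19.4%. These genes are not independent of each other, because neighbours shared peaks: 23 RUNX2 peaks and 29 CBFB peaks accounted for all of the genes above. A RUNX2 peak at histone genes lay near a median of 2 of them and at most 3.

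**Figure D1:**
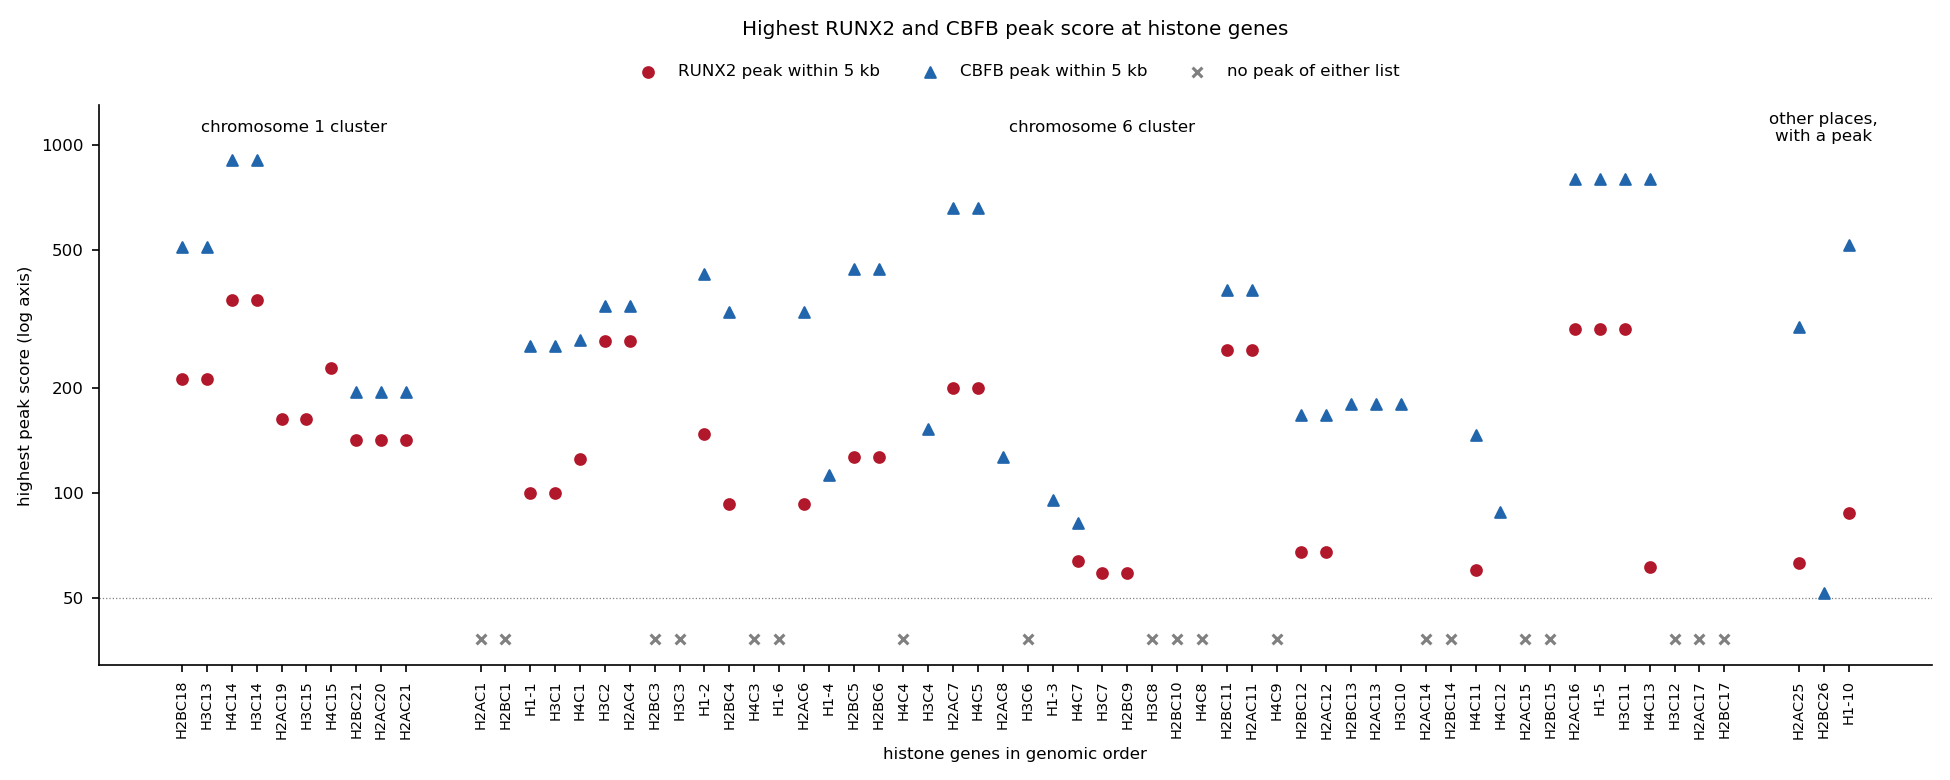
The highest score of any RUNX2 peak (circles) and CBFB peak (triangles) within 5 kb is plotted on a log axis for the histone genes of the chromosome 1 cluster, those of the chromosome 6 cluster, and the 3 genes in other places that had a peak, each in genomic order. Crosses mark the 19 genes of the chromosome 6 cluster with no peak of either list, and the dotted line is the lowest listed score of 50; all 10 genes of the chromosome 1 cluster have a RUNX2 peak.

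**Figure D2:**
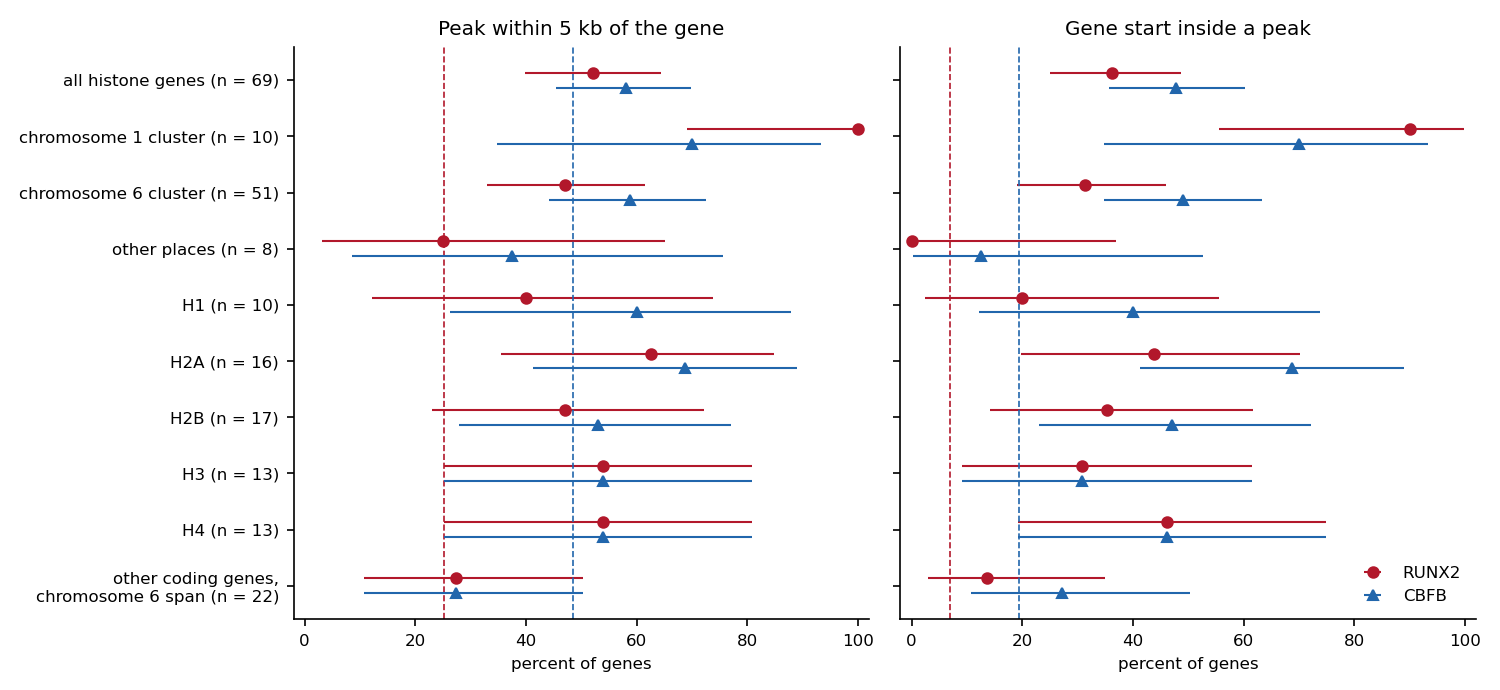
The percent of genes with a peak within 5 kb (left) and with the gene start inside a peak (right) is plotted for RUNX2 (circles) and CBFB (triangles) by place and by histone type, with exact 95% intervals as lines. Dashed lines give the shares over all 20163 protein-coding genes, 25.2% and 48.4% on the left and 6.95% and 19.4% on the right.

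The chromosome 1 and chromosome 6 clusters were then compared. On chromosome 1, all 10 genes had a RUNX2 peak within 5 kb (69.2 to 100%), and 9 of 10 starts lay inside one. CBFB peaks were found at 7 of these 10 genes, which were also the 7 with overlapping peaks. The start outside the RUNX2 peaks was that of H2BC21. On chromosome 6, 24 of 51 genes had a RUNX2 peak, or 47.1% (32.9 to 61.5), and 16 starts, or 31.4%, lay inside one. CBFB peaks were found at 30 of the 51, or 58.8% (44.2 to 72.4), and 25 starts lay inside one. The exact intervals of the RUNX2 shares of the clusters did not overlap, while those of CBFB did. This is not a test between the clusters, because neighbouring genes shared the 6 RUNX2 peaks of chromosome 1 and the 15 of chromosome 6. Of the 6 RUNX2 peaks of the chromosome 1 cluster, however, 5 lay in sequence that recurs elsewhere in the genome. When such peaks were left out, a choice made after seeing the data, 3 of the 10 genes of chromosome 1 and still 24 of the 51 of chromosome 6 had a RUNX2 peak.

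The peaks of the chromosome 1 cluster were wide and ranked high in their own list. Scores are those of MACS, 10 times the negative log10 of the p-value of a peak, and they were compared only within a list because they depend on depth. The 6 RUNX2 peaks scored 142 to 359 with a median width of 3584 bp. Over the whole RUNX2 list the median score was 84.1 and the median width 937 bp. The highest lay at H3C14 and H4C14, which encode H3 and H4 (chr1:149810258-149815000), with a RUNX2 score of 359 and a CBFB score of 907. It also covered H2AC18, an H2A gene that the annotation holds under an older name. That RUNX2 score was at or above 97.5% of its list. A second peak at the start of H4C14 (chr1:149801836-149805447) scored 236 for RUNX2 and 521 for CBFB. H2BC18 and H3C13, both on the minus strand, shared a peak over both starts (chr1:149783070-149785634) that scored 213 for RUNX2 and 509 for CBFB. H2BC21, H2AC20 and H2AC21 shared the weakest of the cluster (chr1:149858322-149859767), with 142 for RUNX2 and 196 for CBFB.

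H2AC19, H3C15 and H4C15 were the genes of chromosome 1 with RUNX2 peaks and no CBFB peak. The first of these RUNX2-only peaks covered the starts of H2AC19 and H3C15 and also lay near H4C15 (chr1:149821947-149825503, score 163). The other covered the start of H4C15 (chr1:149831868-149836323, score 229). Every 36-base word of both peaks was found more than once in GRCh37, so both were 100% repeated by this measure, as were the peaks at H4C14 and H3C14. The peak of H2BC18 and H3C13 was 75.6% repeated, and that of H2BC21 14.2%. Of the 23 RUNX2 peaks at histone genes 5 were over 50% repeated, beside 2.5% of the RUNX2 list, and of the 29 CBFB peaks 4 were, beside 3.07% of the CBFB list.

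The sequence of each RUNX2-only peak of chromosome 1 recurred letter for letter within the same cluster, on the opposite strand. The 3557 bp of the peak at H3C15 recurred at chr1:149811443-149814999, under the RUNX2 peak of score 359 and the CBFB peak of score 907. The 4456 bp of the peak at H4C15 recurred at chr1:149800623-149805078, which overlapped the peaks of scores 236 and 521. The CBFB peak at H4C14 was 7552 bp long, and its copy at chr1:149829378-149836929 was identical over the full length but held no CBFB peak. In sequence that is identical, the letters of a read cannot tell the copies apart. How the authors treated such reads is not given in the sources used here, and the part of repeated sequence in the RUNX2-only calls was not tested. Over the whole RUNX2 list, 85.9% of peaks over 50% repeated overlapped a CBFB peak, beside 94.4% of the others. Leaving out peaks over 50% repeated, 17 of 18 RUNX2 peaks at histone genes overlapped a CBFB peak.

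A further RUNX2-only peak, the last at histone genes, lay on chromosome 6 and was short and weak (chr6:26251672-26252396, score 59.1, at or above 19.1% of its list) and 8.99% repeated. It covered the start of H2BC9 and lay near H3C7 and H4C7. H4C7 also had a pair of overlapping peaks with a RUNX2 score of 63.8 and a CBFB score of 82.3. At 5 of 69 histone genes, or 7.25%, a RUNX2 peak lay within 5 kb and a CBFB peak did not, beside 0.967% of all protein-coding genes. These 5 were H2AC19, H3C15, H4C15, H3C7 and H2BC9.

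**Figure D3:**
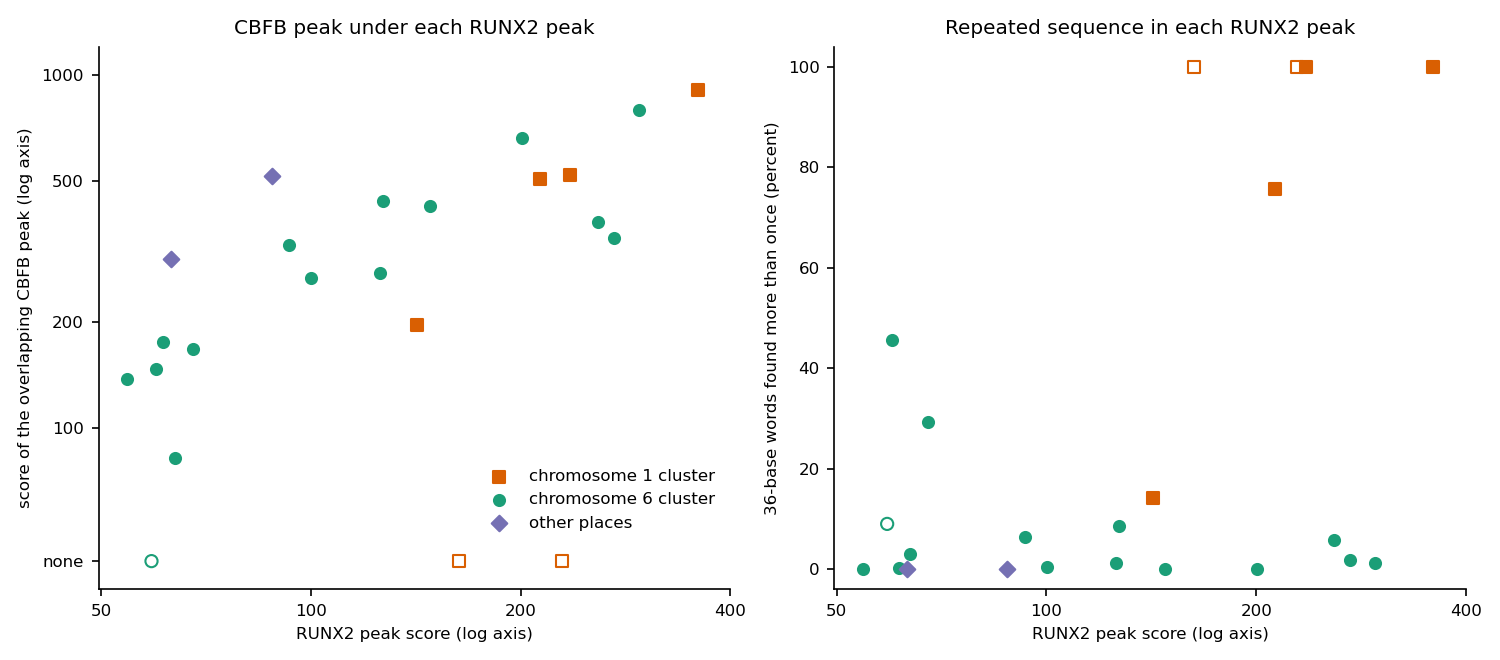
For the 23 RUNX2 peaks at histone genes, the RUNX2 score is plotted on a log axis against the score of the overlapping CBFB peak (left, log axis) and against the percent of 36-base words found more than once in the genome (right). Open symbols are the 3 RUNX2-only peaks; the 2 of chromosome 1 are 100% repeated, and the 1 of chromosome 6 is 8.99% repeated.

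Within the chromosome 6 cluster the genes formed 4 runs, separated by gaps over 100 kb. The first run held only H2AC1 and H2BC1, named here after their values were seen, and neither had a peak of either list. The second run held 28 genes, of which 15 had a RUNX2 peak and 17 a CBFB peak. The third held 5 genes, of which 4 had both. The last held 16 genes, of which 5 had a RUNX2 peak and 9 a CBFB peak. The other protein-coding genes inside the chromosome 6 span gave a local background. Of these 22 genes, 6 had a RUNX2 peak, or 27.3% (10.7 to 50.2), and 6 a CBFB peak. They include H4C2, which the annotation holds under an older name. Of the 18 that lay over 5 kb from every histone gene counted, 4 had a RUNX2 peak, or 22.2% (6.41 to 47.6). The chromosome 1 span held 3 other protein-coding genes, of which 2 had a RUNX2 peak and 3 a CBFB peak. Both RUNX2 peaks were those of histone genes: the genes were H2AC18, also under an older name, and BOLA1, which overlaps H2AC21. The local background of chromosome 1 thus holds too few genes to compare with the 10 of 10 histone genes there.

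The strongest RUNX2 peak of chromosome 6 lay in the last run at H1-5, a linker histone gene, near H2AC16 and H3C11 (chr6:27833545-27835835). It scored 296 for RUNX2 and 798 for CBFB. The next lay in the second run over the starts of H3C2 and H2AC4 (chr6:26031433-26034060), with 273 for RUNX2 and 346 for CBFB. H2BC11 and H2AC11 of the third run shared a peak over both starts (chr6:27099488-27101511) with 258 and 383. The peak at H4C5 and H2AC7 (chr6:26204419-26206106) scored 201 for RUNX2 and 661 for CBFB, which was at or above 94.7% of the CBFB list. These 4 RUNX2 peaks were at most 5.78% repeated.

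Lower scores were found at further places of the second run. H1-2 had 148 for RUNX2 and 425 for CBFB. A peak at the start of H2BC6, also near the end of H2BC5, had 127 and 439. A peak near H4C1 and H3C2 had 126 and 275, and its neighbour at the start of H4C1, near H1-1 and H3C1, had 100.2 and 265. H2BC4 and H2AC6 shared a peak over both starts with 93.2 and 330. Another peak downstream of H2AC6 had 54.5 and 138.

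The weaker RUNX2 peaks of the third and last runs all had a CBFB partner. H2BC12 and H2AC12 shared a peak of 67.7 for RUNX2 and 167 for CBFB. H4C13, near H3C11, had 61.5 and 176. H4C11 had 59.95 and 147, and 45.6% of this RUNX2 peak was repeated. H4C11 and H4C13 thus ranked low in the RUNX2 list, at or above 20.8% and 23.3% of it.

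Of the 8 genes outside the clusters, 2 had a RUNX2 peak within 5 kb. H1-10, a linker histone gene that is not tied to replication, had 87.9 for RUNX2 and 517 for CBFB (chr3:129032884-129033644). H2AC25 had 63.1 and 301 (chr1:228639672-228640503). Neither RUNX2 peak covered the gene start. H4C16, H1-7, H2BC12L and H1-8 had no peak of either list, and H2BC26 had a CBFB peak only, with a score of 51.7.

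CBFB peaks without a RUNX2 peak within 5 kb were found at 9 of the 69 histone genes, beside 24.2% of all protein-coding genes. The linker genes H1-4 and H1-3 had CBFB scores of 113 and 95.3. H2BC13, H2AC13 and H3C10 shared a peak of 181. H3C4 had 152, H2AC8 had 127 and H4C12 had 88.3, and the last of the 9 was H2BC26. These scores ranked from at or above 2.20% of the CBFB list for H2BC26 to 66.6% for the peak of H2BC13, and the list median was 121.

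All 5 histone types had members with a RUNX2 peak. No test was made between types, because the counts are small and genes of different types share peaks. A RUNX2 peak lay within 5 kb of 4 of 10 H1, 10 of 16 H2A, 8 of 17 H2B, 7 of 13 H3 and 7 of 13 H4 genes. The exact intervals of all 5 overlapped, from 12.2 to 73.8% for H1 to 35.4 to 84.8% for H2A. CBFB peaks were found at 6, 11, 9, 7 and 7 genes of these types. The start lay inside a RUNX2 peak at 2 of 10 H1, 7 of 16 H2A, 6 of 17 H2B, 4 of 13 H3 and 6 of 13 H4 genes, and inside a CBFB peak at 4, 11, 8, 4 and 6. For H3 within the chromosome 6 cluster it was 1 of 10 for RUNX2 and 2 of 10 for CBFB.

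Peaks at histone genes mostly sat on a gene start. A histone gene start lay inside 18 of the 23 RUNX2 peaks, or 78.3%, and 23 of the 29 CBFB peaks, or 79.3%. The start of H4C2, held under an older name and not counted, lay inside a further peak of each list. In the whole lists, 11.9% of RUNX2 and 12.3% of CBFB peaks held the start of any protein-coding gene. Peaks at histone genes were chosen for being near a gene and were wider, with a median of 1673 bp for RUNX2 against 937 bp in its list. The midpoint of the RUNX2 peaks lay a median of 435 bp from the nearest histone gene start, and in 16 of 23 it lay downstream of it.

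H2A and H2B genes often stand head to head and share the DNA between their starts. There were 10 such pairs with starts at most 500 bp apart. A RUNX2 peak covered both starts in 3 of them, H2BC11 with H2AC11, H2BC4 with H2AC6, and H2BC12 with H2AC12. A CBFB peak covered both starts in these 3 and in 2 more, H2BC13 with H2AC13 and H2BC21 with H2AC20.

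RUNX2 and CBFB peaks at histone genes mostly fell together. A CBFB peak overlapped 20 of the 23 RUNX2 peaks, or 87.0% (66.4 to 97.2), beside 94.2% of the whole list. A RUNX2 peak overlapped 20 of the 29 CBFB peaks, or 69.0% (49.2 to 84.7), beside 33.8% of the whole list. The CBFB peaks with a RUNX2 partner scored 82.3 to 907, with a median of 338. The 9 without one scored 51.7 to 184, with a median of 113, so the ranges overlapped. Over the 20 overlapping RUNX2 peaks the scores of both proteins had a Spearman's rho of 0.79, and over the 9355 of the whole list 0.60. Both libraries share the same cells and genome, so this is a description and carries no p-value.

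The RUNX proteins bind the core sequence TGTGGT. To ask whether peaks at histone genes held it, both strands were read for these letters (ACCACA on the other strand) up to 100 bp from the middle of each peak. It was found in 4 of the 23 RUNX2 peaks, or 17.4% (4.95 to 38.8), beside 43.2% of the whole RUNX2 list. For CBFB it was found in 8 of 29 peaks, or 27.6% (12.7 to 47.2), beside 41.6% of the list. Over the full width the core was found in 17 of 23 RUNX2 peaks, or 73.9%, beside 78.1% of the list, and 24 of 29 CBFB peaks, or 82.8%, beside 80.9%. These shares cannot be compared directly, because a wider peak has more room for a core and the median widths were 1673 against 937 bp for RUNX2 and 2415 against 1148 bp for CBFB. The shares near the midpoint have a width limit too. The lists give no point of highest signal, and in a wider peak the midpoint can lie farther from it. The start of a counted histone gene lay in 18 RUNX2 peaks, of which 1 held the core near its midpoint. Of the 5 other RUNX2 peaks, 3 did. Of these 3, 1 covered the start of H4C2, which the annotation holds under an older name and which was not counted. The 5 RUNX2 peaks in repeated sequence held none near the midpoint, and the other 18 held it in 4, or 22.2%.

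The 4 RUNX2 peaks with a core within 100 bp of the midpoint were those near H2AC25 and H1-10 outside the clusters, 1 over the H4 gene H4C2 between H4C1 and H3C2, and 1 at H2BC6. The core nearest the midpoint is shown for each in GRCh37, read 5′ to 3′ on the strand that has TGTGGT, with the core in capitals.
H2AC25 peak, chr1:228640041-228640070, plus strand: ggccgcaggaccTGTGGTgagtggtgagag
H1-10 peak, chr3:129033167-129033196, minus strand: accaggacgaagTGTGGTggccagagagtg
H4C2 peak, chr6:26027206-26027235, minus strand: cactgccatggaTGTGGTttacgcgctcaa
H2BC6 peak, chr6:26172182-26172211, minus strand: aacgtgtggctcTGTGGTtagggcacggag

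The core of the H4C2 peak lay in the coding sequence of the gene. This led to a count, made after seeing the data, of the cores in peaks that fell in histone coding sequence. The 23 RUNX2 peaks held 31 cores, of which 8, or 25.8%, lay in histone coding sequence. Of all 16606 cores in the RUNX2 list, 1.30% lay in the coding sequence of any gene. The 29 CBFB peaks held 52 cores, of which 12, or 23.1%, lay in histone coding sequence, beside 1.47% of the list. These peaks were chosen for lying near short genes that are mostly coding, which raises the share. Histone coding sequence made up 22.3% of the bases of the 23 RUNX2 peaks and 19.4% of those of the 29 CBFB peaks, and any coding sequence made up 2.32% and 2.48% of the bases of the lists. The share of cores in coding sequence was thus close to the share of bases at histone genes. Of the 8 CBFB peaks with a core near the midpoint, 5 had such a core in coding sequence.

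**Figure D4:**
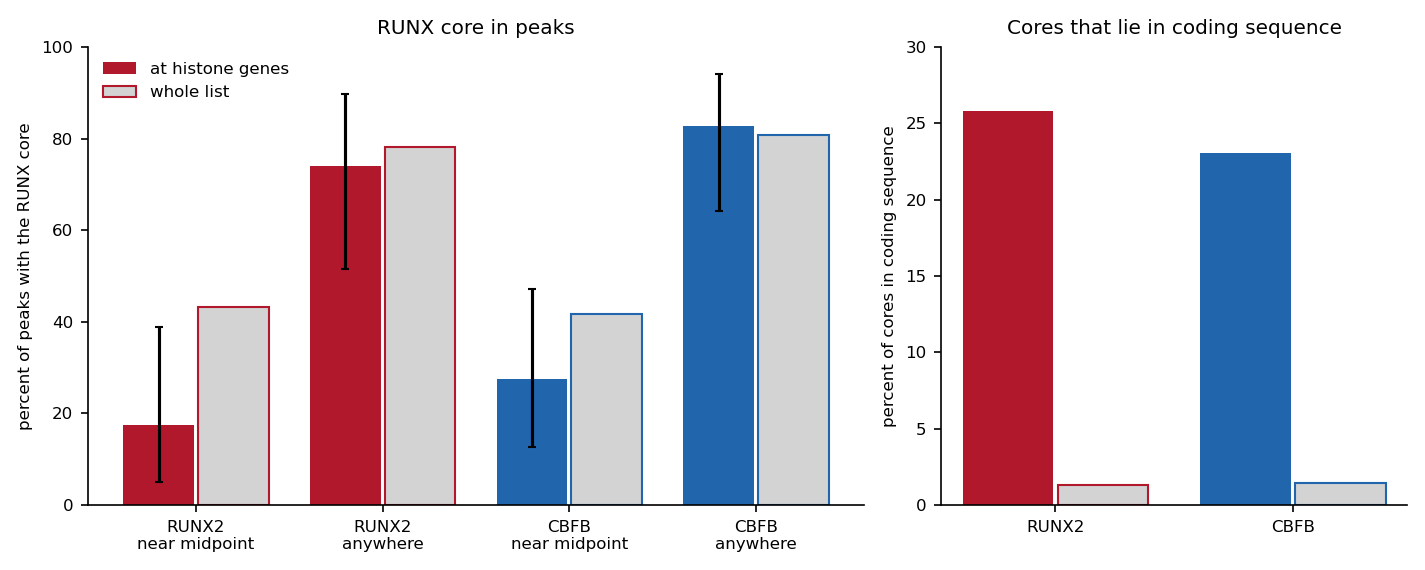
Left, the percent of peaks with the RUNX core within 100 bp of the midpoint and anywhere in the peak, at histone genes (filled bars, 23 RUNX2 and 29 CBFB peaks, exact 95% intervals) and in the whole list (grey bars). Right, the percent of all cores inside peaks that lie in coding sequence, 25.8% for RUNX2 peaks at histone genes, whose bases are 22.3% coding, and 1.30% for the RUNX2 list, whose bases are 2.32% coding.

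The coding cores stood at the same place in every gene that had one. In H4 genes the core began at base 258 of the coding sequence, on the coding strand, in 8 of 14 genes. In H2A genes it began at base 371, on the other strand, in 11 of 17 genes. Both counts include a gene that the annotation holds under an older name, H4C2 and H2AC18. No H1, H2B or H3 gene had a core in its coding sequence. Over all protein-coding genes 59.0% had at least 1, in coding sequences that are mostly longer, with 0.706 cores per kb beside 1.86 in H4 and 1.66 in H2A.

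The H4 cores are printed first for the 5 genes with a RUNX2 peak over the core, then for the other 3, to show how little the letters around it vary. The strand shown is the coding strand and the core is in capitals.
H4C14, chr1:149804494-149804523: cacagccatggaTGTGGTgtacgcgctcaa
H4C15, chr1:149832423-149832452: cacagccatggaTGTGGTgtacgcgctcaa
H4C2, chr6:26027206-26027235: cactgccatggaTGTGGTttacgcgctcaa
H4C5, chr6:26205118-26205147: gacagcgatggaTGTGGTctacgcgctgaa
H4C11, chr6:27792148-27792177: caccgccatggaTGTGGTctacgcgctcaa
H4C12, chr6:27799031-27799060: caccgccatggaTGTGGTctacgcgctcaa
H4C8, chr6:26285453-26285482: gacagcaatggaTGTGGTctacgcgctgaa
H4C16, chr12:14923744-14923773: cacggccatggaTGTGGTgtacgcgctgaa
H4C12 had a CBFB peak over this core, with a score of 88.3, and no RUNX2 peak. H4C8 and H4C16 had neither. A RUNX2 peak overlapped the coding sequence of 5 of the 8 H4 genes with the core and of 2 of the 6 without it, H4C1 and H4C13. The counts for CBFB were 5 of 8 and 2 of 6.

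For H2A the same counts were made. A RUNX2 peak overlapped the coding sequence of 4 of 11 H2A genes with the core and of 4 of 6 without it, and for CBFB the counts were 7 of 11 and 5 of 6. Examples are given on the strand that has TGTGGT, opposite to the coding strand, for the 3 genes with a RUNX2 peak over the core and for H2AC14, chosen after its values were seen, which had no peak of either list.
H2AC11, chr6:27101209-27101238: tgcccttcgcctTGTGGTggctctcagtct
H2AC18, chr1:149813878-149813907: tgccctttgcctTGTGGTgactctccgtct
H2AC19, chr1:149823039-149823068: tgccctttgcctTGTGGTgactctccgtct
H2AC14, chr6:27782131-27782160: tttacttagtctTGTGGTggctctcagttt
These counts are small and the genes share peaks, so they are given as a description of these lists.

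Histone promoters carry known short sequences, and these were compared with the peaks. Promoter windows of RefSeq, from 250 bases before to 50 after the gene start in build GRCh38.p14, were matched by symbol for 62 of the 69 genes. Each word was searched for on both strands. The windows of head-to-head genes overlap, so 1 site can count for both genes. ATTTGCA of H2AC1 and H2BC1, for example, was the same site read on opposite strands. The counts below are thus of genes and not of separate sites. CCAAT, the binding word of NF-Y, was found in 52 of 62 histone promoters, or 83.9%, beside 36.4% of all 15842 promoters with a window, and in every H2A, H2B and H3 promoter but only 2 of 11 H4 promoters. TATAAA was found in 40 of 62, or 64.5%, beside 9.63%. This count includes words that lie at the start of a head-to-head partner. In H2BC4 and H2BC11 the word lay at -220 from the gene start, and it was the word at -31 of H2AC6 and H2AC11. ATTTGCA, part of the octamer bound by POU2F1, was found in 11 of 15 H2A and 12 of 16 H2B promoters, in 2 of 11 H3 and in no H1 or H4 promoter, beside 3.43% of all promoters. The H3 genes were H3C4, whose window held the same stretch at -118 as that of H2AC7, and H3C3, where the word lay after the gene start, at 22. GGTCCG, part of the H4 site bound by HINFP, was found in 10 of 11 H4 promoters and in 4 of the 51 others, beside 14.5%.

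The RUNX core TGTGGT was found in 9 of 62 histone promoter windows, or 14.5%, beside 10.8% of all promoters. Where the gene start lay inside a RUNX2 peak it was found in 2 of 23 windows, and where it did not in 7 of 39. GGTCCG was found in 6 of 23 and 8 of 39, and ATTTGCA in 11 of 23 and 14 of 39. CCAAT was found in 19 of 23 and 33 of 39. TGCGGT, a variant of the core, was found in 6 of 62 windows, beside 8.61% of all promoters. The stretch that H2AC7 and H3C4 had in common also held TGTGGT, which was counted for both genes. RefSeq starts need not be the GENCODE starts used for the peaks. A word in a window is a description and not a bound site.

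Examples of H4 promoters are shown around GGTCCG, in capitals, and their likeness was not measured. H4C4, H4C12 and H4C16 also had the word and are not shown. H4C14, H4C15, H4C5, H4C11 and H4C13 had a RUNX2 peak over the start, and H4C8 and H4C9, chosen after their values were seen, had no peak of either list.
H4C14, word at -46: ggttttcaatctGGTCCGatactcttgtat
H4C15, word at -46: ggttttcaatctGGTCCGatactcttgtat
H4C5, word at -46: agtcttcatttaGGTCCGaattcccggcat
H4C11, word at -47: ggttctcagttcGGTCCGccaactgtcgta
H4C13, word at -45: agttcccaatcaGGTCCGatttattactat
H4C8, word at -46: agtcttcaattaGGTCCGaattcccggcat
H4C9, word at -46: ggttttcagtctGGTCCGcagaggttaccc
The positions count bases from the gene start, and the promoter strand is shown. H4C5 and H4C8 differ little in this stretch. H4C5 had 201 for RUNX2 and 661 for CBFB, and H4C8 had no peak. Whether promoter sequence bears on the peaks was not tested.

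Genes that act on histone genes or handle their products were counted by the same 5 kb rule. Of 19 genes of histone gene transcription and RNA processing, 6 had a RUNX2 peak and 9 a CBFB peak, beside 25.2% and 48.4% of all protein-coding genes. NPAT, the coactivator of histone gene transcription in S phase, had a RUNX2 score of 55.4 and a CBFB score of 251, with its start inside both peaks. LSM10, a subunit of the U7 particle that cuts histone RNA, had 190.0 and 968. SYMPK, a scaffold of the cleavage machinery, had 110 and 114, and CASP8AP2, a factor of histone locus bodies, had 97.9 and 161. POU2F1, which binds the octamer of H2B promoters, had 89.3 and 170, in peaks that did not overlap. ZNF473, a U7-linked zinc finger protein, had a RUNX2 peak of 60.7 over its start and no CBFB peak. SLBP, which binds the stem loop of histone RNA, had a CBFB peak of 92.7 only, and HINFP, the factor of H4 promoters, had none.

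Of 12 histone chaperone genes, 2 had a RUNX2 peak and 5 a CBFB peak, beside 25.2% and 48.4% of all protein-coding genes. HIRA, which deposits H3.3, had 59.6 for RUNX2 and 101 for CBFB, and SUPT16H, a subunit of FACT, had 57.4 and 70.6. Of 11 genes of replacement and other histones, 3 had a RUNX2 peak and 5 a CBFB peak, close to those shares. H3-3B, which encodes H3.3, had top scores of 204 and 749, and H2AX, the histone phosphorylated at DNA breaks, had 98.1 and 249, with its start inside both peaks. MACROH2A1, a macrodomain variant of H2A, had 54.0 and 55.9.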

How the data were processed

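Peaks were called by the authors with MACS, and the submitters' notes name MACS 1.4.1, CASAVA 1.8.2 and hg19. The authors deposited 1 peak list per antibody with a score for each peak, read here as 10 times the negative log10 of its p-value, from 50 to 3100. Lists hold no read counts, so depth is unknown. The aligner, the calling limit and the treatment of repeated reads are not given in the sources used here.

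Peaks were counted from 1. Steps that use genes or sequence leave out 13 RUNX2 and 42 CBFB peaks that lie on unplaced or alternate contigs. A peak was near a gene when its edge lay within 5 kb of the gene body. Peaks overlapped when they shared at least 1 bp. Shares carry exact Clopper-Pearson 95% intervals, for counting error only. Repeated sequence was the percent of 36-base words of a peak found more than once in GRCh37 on either strand, and over 50% was called repeated. Copies of at least 1 kb and 99% identity were found with blastn 2.17.0. Coding sequence was that of GENCODE. H4C2 and H2AC18 stand in the annotation under older names and entered only where stated, and H2BC7, H2BC8 and H4C6 were not analysed here. Counts cover all members, and 1 item is not reported here.

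Members, gene lists and tests were chosen with earlier results of these data known. Named were all histone genes with a RUNX2 peak, every RUNX2-only peak, the 5 highest peaks of each list, genes without peaks where at most 10 in a place, and, of the other lists, genes with a RUNX2 peak with NPAT, SLBP and HINFP. Counting steps were tested on simulated data. Alternatives changed the reach, score limit, overlap rule, gene set and motif. Analyses used Python 3.11.15, numpy 2.4.6, pandas 2.3.3, scipy 1.17.1, pysam 0.24.0, numba 0.67.0 and matplotlib 3.10.9.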

Additional observations from a re-analysis of the deposited data

How the results depend on the processing

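Of 70 values under alternatives, 58 stayed within the exact 95% interval of the reported share or within 1.5 times the reported count, and 12 did not. With a reach of 10 kb, the shares with a RUNX2 peak, a CBFB peak and overlapping peaks rose to 71.0%, 84.1% and 69.6%, beside 28.4%, 52.7% and 26.8% of all protein-coding genes. With scores of at least 100, the shares with a RUNX2 peak and with overlapping peaks were 36.2% and 31.9%, beside 11.5% and 11.1%, and 15 genes of chromosome 6 had a RUNX2 peak. Without peaks in repeated sequence, chosen after seeing the data, 3 of 10 genes of chromosome 1 had one. With midpoints within 200 bp, 65.2% of RUNX2 peaks at histone genes met a CBFB peak, beside 68.8% of the list. With as many top CBFB peaks as RUNX2 peaks, 89.5% of CBFB peaks there overlapped, beside 67.9%. The core anywhere in the peak was found in 73.9% of RUNX2 and 82.8% of CBFB peaks, and TGTGGTT near the midpoint in 6.90% of CBFB peaks, beside 23.2%. Adding both genes with older names, also chosen after seeing the data, gave 53.5% with a RUNX2 peak. No paired analysis was possible because the series has 1 library for each antibody. Depth is unknown, so an unlisted peak was not detectable here rather than shown to be absent.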
